A study of Mus musculus with 39 samples.

Results

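The cytochrome P450 genes of families 1 to 3 were followed through kidney, liver, lung and skin of perforin-deficient mice that were young, old, or old and given the BCL-2 family inhibitor ABT-737. Members were all genes whose symbol begins with Cyp, a family number from 1 to 3, a subfamily letter and a digit, with the symbol read from the gene annotation that the authors deposited. The rule found 73 members among 53366 gene symbols in all, 62 in the table of kidney, liver and lung and 72 in the table of skin. Of the 73, 12 had a symbol marked -ps for a pseudogene. After the filter on low counts, the kidney fit tested 16 members, the liver fit 25, the lung fit 9 and the skin fit 10, so 35 of the 73 were tested in at least 1 organ, and 4 of them (Cyp2d22, Cyp2e1, Cyp2f2 and Cyp2j6) in all 4.

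P450 enzymes are haem proteins of the endoplasmic reticulum that insert an oxygen atom into lipophilic substrates, with electrons handed over by the reductase Por and, for some reactions, cytochrome b5. Families 1 to 3 hold most of the enzymes that clear drugs and pollutants, and they also act on steroids, bile acids and arachidonic acid. Hepatocytes carry most of them, proximal tubule cells of the kidney and club cells of the airway carry sets of their own, and many are transcribed under xenobiotic receptors (Ahr, the constitutive androstane receptor, the pregnane X receptor), under growth hormone and under clock-controlled factors of the Dbp, Tef and Hlf group.

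Every mouse, the young controls included, was a Prf1-/- male on the C57BL/6 background, so that cytotoxic lymphocytes lacked perforin in all groups. The young mice were 3 months old and untreated, and both old groups were 20 months old. One old group, labelled DM, had received vehicle, and the other ABT-737 at 25 mg/kg into the peritoneum from 18 months of age, on consecutive days once a month. There were 4 young, 3 vehicle and 3 ABT-737 libraries of kidney, liver and lung, and 3 of each group in skin, 39 in all. Libraries of bulk tissue were prepared by a form of MARS-seq, which counts the 3′ end of transcripts, so levels are given as CPM, the counts of a gene scaled to a common library size after TMM normalization, without division by transcript length, and the order of genes by CPM is an order of counts. In bulk tissue, fewer cells of a type and less RNA per cell cannot be told apart.

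The kidney libraries held 1431814 to 3513311 counts and those of skin 1493411 to 3842808, the lung libraries 1046508 to 2600092, and the shallower liver libraries 223957 to 891116. Biological variation between libraries of a group was lowest for kidney (coefficient 16.5%), then liver (23.5%), lung (31.7%) and skin (34.9%). The markers of each organ were present in its libraries. Leukocyte markers, a list of 11 genes, were higher in the vehicle group than in the young group without overlap in every organ: kidney sums were 363–514 CPM in young and 1835–2723 CPM in vehicle mice, liver sums 132–223 and 1062–1999 CPM, lung sums 1957–2721 and 5425–9603 CPM, and skin sums 189–671 and 1472–1945 CPM, and all 11 were detected except Cd79a in liver, at 0. The ABT-737 groups held 475–732, 129–240, 2594–5580 and 420–1043 CPM. Erythroid genes, a list of 5, were also higher in vehicle than in young mice without overlap in kidney (996–5857 against 11587–11625 CPM), liver (396–1113 against 2716–3312 CPM) and skin (507–598 against 1266–14706 CPM), and overlapped in lung (1417–2707 against 2253–16839 CPM); after ABT-737 they summed to 7556–11259, 1163–2532, 351–997 and 5071–48051 CPM in these organs in turn. The part of either shift in the results that follow was not tested. Prf1 itself gave 0 to 169 counts per library, which does not check the deletion, as the part of the gene that was disrupted is not given in the sources used here.

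In kidney, 7 of 16 tested members differed between vehicle and young mice by edgeR's quasi-likelihood test (adjusted p under 0.05), 4 higher and 3 lower, while 13.3% of all 11123 genes tested did so. The members that rose were Cyp2d12, Cyp2a5, Cyp2d9 and Cyp2c44, and those that fell were Cyp2j5, Cyp2j11 and Cyp2d26. The median log2 fold change of the 16 was -0.37, against 0.01 over all genes.

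Cyp2d12, a member of the debrisoquine hydroxylase subfamily on chromosome 15 (NM_201360, mm10 chr15:82555098-82559413), moved furthest. It stood at 250, 272, 320 and 192 CPM in the young kidneys, at 1061, 1200 and 1098 CPM after vehicle and at 1026, 900 and 1185 CPM after ABT-737. All 6 old kidneys were above all 4 young ones, a 4.32-fold rise in the vehicle group (log2 2.11 ± 0.17 SE, adjusted p = 9.97e-07). With ABT-737 against young the log2 change was 2.0 ± 0.17 (adjusted p = 7.04e-06), and with ABT-737 against vehicle it was -0.11 ± 0.18 (adjusted p = 0.83).

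Cyp2d9, the steroid 16-alpha-hydroxylase gene that is male-biased in mouse liver, lay in the same chromosome 15 cluster. It stood at 271, 355, 344 and 264 CPM in young kidneys, at 543, 354 and 713 CPM after vehicle and at 418, 675 and 481 CPM after ABT-737. Vehicle replicate 4 lay within the young range, and the rise was 0.80 ± 0.21 (adjusted p = 0.021). Within the last 500 transcript bases, 29.9% of the 40-base words of Cyp2d9 and 28.4% of those of Cyp2d12 also occurred in other genes, mostly each other and Cyp2d41-ps, so part of their reads may not have been assigned uniquely.

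Cyp2d26, another member of this cluster, went the other way. It stood at 254, 227, 286 and 245 CPM in young kidneys, at 117, 147 and 197 CPM after vehicle and at 90.9, 110 and 93.5 CPM after ABT-737. The 3 groups were stacked without overlap, and the log2 changes were -0.72 ± 0.17 from young to vehicle (adjusted p = 0.0096) and -1.37 ± 0.17 from young to ABT-737 (adjusted p = 5.8e-04). The step from vehicle to ABT-737, at -0.64 ± 0.18, did not pass the test (adjusted p = 0.10). Of the 3′ words of Cyp2d26, 29.9% also occurred in other genes, chiefly Cyp2d40 and Cyp2d22.

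The coumarin hydroxylase Cyp2a5 and its neighbour Cyp2a4, a steroid 15-alpha-hydroxylase, are near-identical copies on chromosome 7. Cyp2a5 stood at 243, 270, 300 and 241 CPM in young kidneys, at 575, 376 and 862 CPM after vehicle and at 409, 654 and 541 CPM after ABT-737. The groups of old kidneys did not overlap the young one, and the rise was 1.20 ± 0.22 with vehicle (adjusted p = 0.0019) and 1.02 ± 0.22 with ABT-737 (adjusted p = 0.023). Cyp2a4 stood at 609, 708, 664 and 768 CPM in young kidneys, at 1143, 826 and 988 CPM after vehicle and at 967, 1653 and 1255 CPM after ABT-737. It was above the young range in all 6 old kidneys and passed the test in the ABT-737 comparison with young (0.91 ± 0.18, adjusted p = 0.012) but not in the vehicle comparison (0.52 ± 0.18, adjusted p = 0.060). Of the 40-base words at its 3′ end, 53.4% occurred in another gene, chiefly Cyp2a5, and 16.5% of those of Cyp2a5 occurred in Cyp2a4.

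The copies are also alike upstream, which is shown because the pair moved in the same direction in kidney. The windows below are the 200 bases before the start of Cyp2a4 (GRCm38.p6 chr7:26306992-26307191, plus strand) and the matching 200 bases of Cyp2a5 (chr7:26835138-26835337, plus strand) from RefSeq, 5′ to 3′. Capitals mark the 3 bases at which they differ, so 197 of the 200 bases, or 98.5%, are the same.
Cyp2a4: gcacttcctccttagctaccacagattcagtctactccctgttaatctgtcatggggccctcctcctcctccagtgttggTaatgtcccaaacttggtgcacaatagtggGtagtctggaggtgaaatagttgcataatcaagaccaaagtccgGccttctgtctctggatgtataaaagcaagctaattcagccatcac
Cyp2a5: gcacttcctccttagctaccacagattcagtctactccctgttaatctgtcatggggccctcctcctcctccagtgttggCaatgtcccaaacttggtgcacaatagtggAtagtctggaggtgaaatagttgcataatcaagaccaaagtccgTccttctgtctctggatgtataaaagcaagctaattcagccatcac

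Cyp2c44, an epoxygenase of arachidonic acid, stood at 44.2, 41.3, 70.3 and 39.7 CPM in young kidneys, at 74.6, 78.0 and 80.8 CPM after vehicle and at 78.1, 83.6 and 114 CPM after ABT-737. All old kidneys lay above all young ones, by 0.66 ± 0.20 with vehicle (adjusted p = 0.039) and 0.90 ± 0.20 with ABT-737 (adjusted p = 0.024). Young replicate 3 lay close below the vehicle range.

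The Cyp2j enzymes, epoxygenases of arachidonic acid on chromosome 4, numbered 5 among those tested in kidney, and 2 of them, Cyp2j5 and Cyp2j11, fell with vehicle. Cyp2j5, the abundant kidney and liver form, stood at 1102, 1133, 1127 and 1167 CPM in young mice, at 883, 590 and 621 CPM after vehicle and at 828, 1146 and 973 CPM after ABT-737. Every vehicle library lay below the young range, by -0.70 ± 0.16 (adjusted p = 0.01), and the ABT-737 libraries spanned the gap between the other groups (-0.21 ± 0.16 against young, adjusted p = 0.56). Cyp2j11 stood at 81.1, 78.6, 91.9 and 99.7 CPM, then 70.7, 41.0 and 47.0 CPM, then 41.6, 60.4 and 59.2 CPM. It was lower than young in both old groups without overlap, called with vehicle (-0.71 ± 0.19, adjusted p = 0.023) and not with ABT-737 (-0.71 ± 0.19, adjusted p = 0.067).

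Cyp2e1, which oxidises ethanol and other small molecules, had the highest median CPM of the members in kidney and is known from hepatocytes around the central vein and from the proximal tubule. It stood at 1444, 1533, 1422 and 1731 CPM in young mice, at 1249, 893 and 1100 CPM after vehicle and at 1300, 2069 and 1598 CPM after ABT-737. The vehicle libraries lay below the other groups, but neither contrast passed the test (-0.50 ± 0.17 against young, adjusted p = 0.065, and 0.61 ± 0.18 for ABT-737 against vehicle, adjusted p = 0.12). The proximal tubule list of 7 markers was ordered the same way, at 13060–14677 CPM in young kidneys, 10363–12754 CPM after vehicle and 13593–16312 CPM after ABT-737, with 1 of 7 called lower in vehicle against young and 1 of 7 called higher in ABT-737 against vehicle. Its part in the levels of the kidney members was not tested. The plot of the kidney members by library shows these levels for the 8 members called in any kidney comparison.

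**Figure D1:**
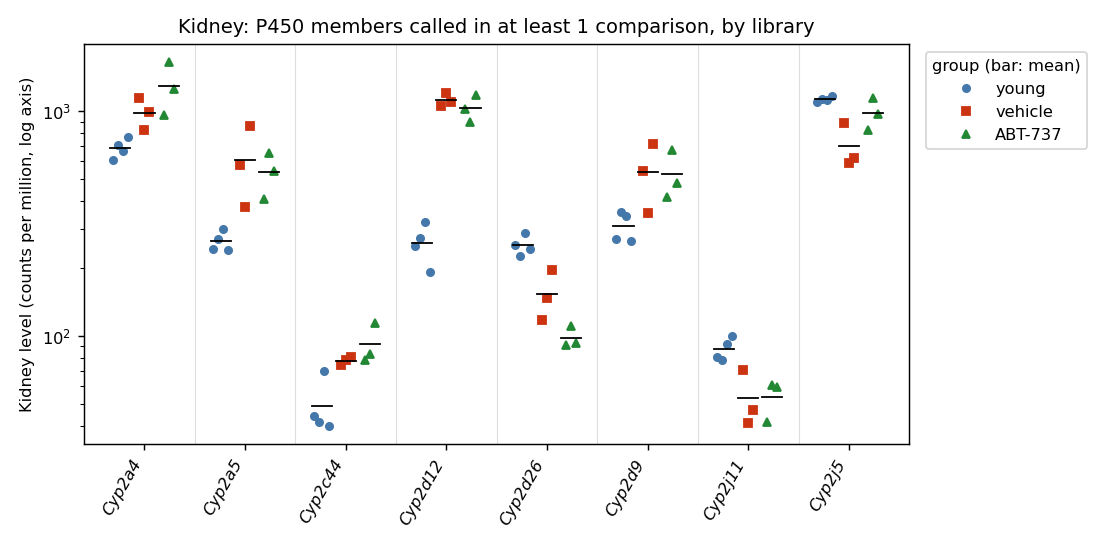
Level in kidney, in CPM on a log axis, of the 8 P450 members called in at least 1 comparison; points are libraries (circles young, squares vehicle, triangles ABT-737) and bars are group means. Cyp2d12 rises from 192–320 CPM in young mice to 900–1200 CPM in both old groups, while Cyp2d26 steps down through the groups.

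Between ABT-737 and vehicle kidneys no member passed the test (0 of 16, with 5 at an unadjusted p under 0.05), where 1.35% of all genes did; DESeq2 called 2, and edgeR called 4 without vehicle replicate 3. The member nearest to the threshold was Cyp2j13, at 306, 121 and 190 CPM after vehicle and 318, 488 and 389 CPM after ABT-737 (0.94 ± 0.25, adjusted p = 0.082). Between ABT-737 and young kidneys 5 of 16 members were called, Cyp2a4, Cyp2a5, Cyp2c44 and Cyp2d12 higher and Cyp2d26 lower, against 2.12% of all genes. These comparisons share their libraries, and their values are not independent. The count for vehicle against young was 4 without young replicate 4 and 3 without vehicle replicate 5, and the count for ABT-737 against young was 3 without any single young library or without ABT-737 replicate 5. Cyp2d12 was called in both comparisons with young, Cyp2a5 and Cyp2d26 in vehicle against young and Cyp2d26 in ABT-737 against young whichever library was left out. In vehicle against young, the call was lost for Cyp2c44 without young replicate 1, 2 or 4 or any 1 vehicle library (changes 0.57 to 0.68), for Cyp2d9 without young replicate 1 or 4 or vehicle replicate 5 (0.54 to 0.74), for Cyp2j11 without young replicate 3 or 4 or vehicle replicate 4 or 5, and for Cyp2j5 without vehicle replicate 4 or 5. In ABT-737 against young it was lost for Cyp2a4 without young replicate 3, for Cyp2a5 without any 1 young library or ABT-737 replicate 4 or 5, and for Cyp2c44 without young replicate 1, 2 or 4 or ABT-737 replicate 5.

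The liver held the largest set. All 25 tested members had a negative log2 fold change in vehicle against young mice, 13 of them passed the test, all lower, and the median was -1.14 against 0.02 over all 5583 genes. Of all genes, 22.6% were called in either direction and 10.8% as lower, and 49.0% had a negative change. The members took 2.03–2.23% of the counts in young livers, 0.655–1.55% after vehicle and 1.71–2.17% after ABT-737, as plotted by library for the called members.

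**Figure D2:**
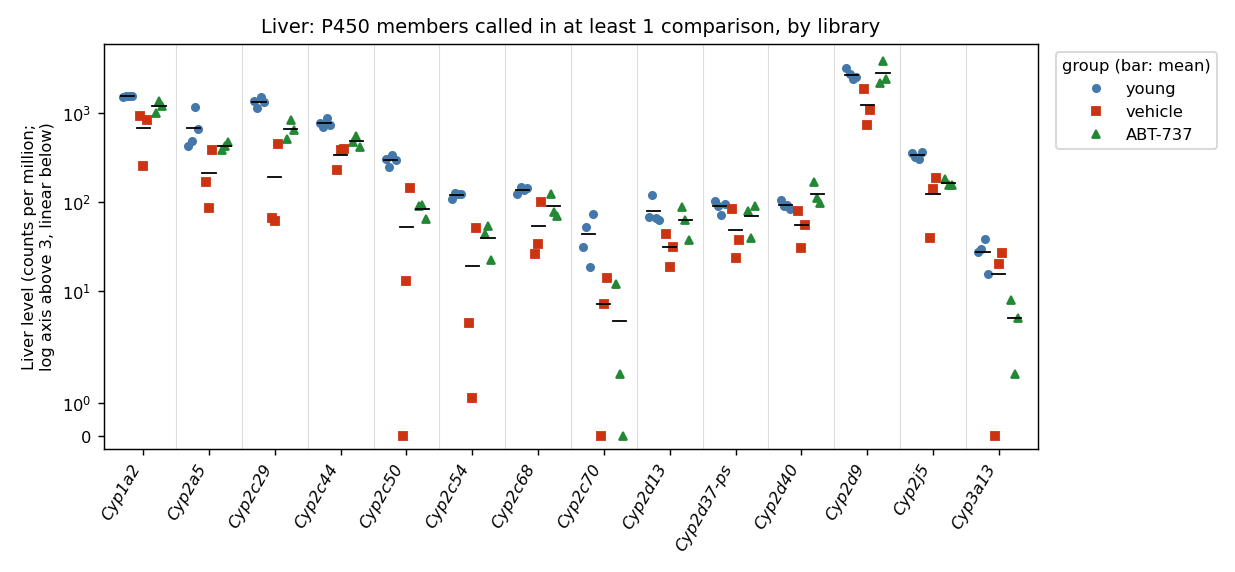
Level in liver, in CPM on an axis that is logarithmic above 3 and linear below, of the 14 P450 members called in at least 1 comparison; points are libraries (circles young, squares vehicle, triangles ABT-737) and bars are group means. Cyp2c29 falls from 1156–1519 CPM in young mice to 60.9–446 CPM after vehicle and stands at 511–838 CPM after ABT-737.

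The Cyp2c genes on chromosome 19, which hydroxylate drugs and epoxidise fatty acids, held 6 of the 13 members called lower. The summed level of the subfamily was 2684–3242 CPM in young livers, 336–1313 CPM after vehicle and 1347–1874 CPM after ABT-737, without overlap between any of the groups. Of the 7 Cyp2c members tested, Cyp2c29, Cyp2c44, Cyp2c50, Cyp2c54, Cyp2c68 and Cyp2c70 were called lower in vehicle against young. The share of all liver genes called lower was 10.8%.

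Cyp2c29, a phenobarbital-inducible enzyme (NM_007815, mm10 chr19:39287085-39330713), stood at 1375, 1156, 1519 and 1318 CPM in young livers, at 65.5, 60.9 and 446 CPM after vehicle and at 511, 838 and 644 CPM after ABT-737. The groups did not overlap. The vehicle level was 6.79-fold lower than the young one (log2 -2.76 ± 0.53, adjusted p = 0.0017). The ABT-737 level lay 1.75 ± 0.53 above vehicle, which did not pass the test (adjusted p = 0.085), and -1.01 ± 0.49 from young (adjusted p = 0.22).

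Cyp2c50 and Cyp2c54, linoleic and arachidonic acid epoxygenases, were nearly gone in single vehicle livers. Cyp2c50 stood at 304, 249, 341 and 299 CPM in young mice, at 0, 12.9 and 143 CPM after vehicle and at 91.1, 92.9 and 64.4 CPM after ABT-737. The 0 in vehicle replicate 3, the shallowest library, allows a level of up to 13.1 CPM (3 counts, counting error only), which is below every young value. Cyp2c54 stood at 108, 125, 124 and 122.8 CPM, then 4.36, 1.17 and 51.4 CPM, then 43.6, 53.1 and 22.3 CPM, with 1 count behind each of the 2 lowest values. In vehicle against young the changes were -2.32 ± 0.59 for Cyp2c50 (adjusted p = 0.011) and -2.44 ± 0.57 for Cyp2c54 (adjusted p = 0.0063). The 3′ ends of Cyp2c37, Cyp2c50 and Cyp2c54 share words, 36.4%, 33.4% and 35.1% of them with other genes, and Cyp2c37 gave a like pattern that missed the threshold (-1.60 ± 0.58, adjusted p = 0.056). Without vehicle replicate 5 the changes of Cyp2c50 and Cyp2c54 were -4.93 and -5.84.

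Cyp2c44 stood at 780, 700, 874 and 740 CPM in young livers, at 231, 380 and 394 CPM after vehicle and at 468, 560 and 416 CPM after ABT-737. The 3 groups did not overlap, and the fall with vehicle was -1.19 ± 0.24 (adjusted p = 0.0023). Cyp2c68 stood at 122, 149, 135 and 142 CPM, then 26.2, 33.9 and 100 CPM, then 122.9, 77.8 and 69.3 CPM (-1.24 ± 0.35, adjusted p = 0.017). Its 3′ words were shared with other genes in 58.8% of cases, chiefly Cyp2c40. Cyp2c70, which hydroxylates chenodeoxycholic acid to muricholic acid in mice, was a low gene at 31.0, 52.2, 18.4 and 72.9 CPM, then 0, 7.02 and 14.1 CPM, then 11.9, 1.90 and 0 CPM. It was the only Cyp2c member called in liver against young in both old groups (-2.25 ± 0.58, adjusted p = 0.012, and -3.57 ± 0.80, adjusted p = 0.012).

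In the Cyp2d cluster of chromosome 15, which metabolises amines and steroids, 4 of 8 tested members were called lower in vehicle livers than in young ones. Of all liver genes, 10.8% were called lower in this comparison. Cyp2d9 stood at 3181, 2736, 2419 and 2538 CPM in young mice, at 1868, 728 and 1075 CPM after vehicle and at 2168, 3868 and 2434 CPM after ABT-737. The vehicle livers lay below both other groups, by -1.16 ± 0.32 against young (adjusted p = 0.015), and the ABT-737 level was 1.21 ± 0.33 above vehicle, just short of the threshold (adjusted p = 0.053). Cyp2d40 stood at 106, 90.9, 92.2 and 84.4 CPM, then 78.6, 30.4 and 55.2 CPM, then 166, 110 and 96.6 CPM. It fell by 0.89 ± 0.30 with vehicle (adjusted p = 0.040) and was the 1 member called between ABT-737 and vehicle, where it was 2.42-fold higher (1.28 ± 0.32, adjusted p = 0.034). Of the 3′ words of Cyp2d40, 40.3% also occurred in other genes, chiefly Cyp2d41-ps and Cyp2d26, so part of its reads may not have been assigned uniquely.

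Cyp2d13 is listed under a RefSeq identifier for non-coding RNA (NR_003552). It stood at 67.8, 121, 66.0 and 63.3 CPM in young livers, at 43.6, 18.7 and 30.8 CPM after vehicle and at 87.2, 62.6 and 37.1 CPM after ABT-737 (-1.50 ± 0.36 for vehicle against young, adjusted p = 0.0076). The pseudogene Cyp2d37-ps stood at 103, 90.9, 72.2 and 94.0 CPM, then 82.9, 23.4 and 37.2 CPM, then 79.3, 39.8 and 89.1 CPM (-1.14 ± 0.36, adjusted p = 0.035), with vehicle replicate 3 inside the young range. Other genes of the cluster were not called. Cyp2d26 stood at 1460, 1697, 1611 and 1339 CPM, then 1501, 1150 and 1745 CPM, then 2136, 2195 and 1973 CPM (-0.06 ± 0.23 for vehicle against young, adjusted p = 0.88). Cyp2d10 stood at 1462, 1358, 1453 and 1239 CPM, then 1610, 924 and 1309 CPM, then 1478, 1967 and 1716 CPM (-0.11 ± 0.24, adjusted p = 0.79).

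For this cluster the 100 bases before the start are shown for 2 genes that were lower in vehicle livers, Cyp2d9 (GRCm38.p6 chr15:82452277-82452376, plus strand) and Cyp2d40 (chr15:82764123-82764222, minus strand), and for Cyp2d26 (chr15:82794246-82794345, minus strand), which was not. The windows are read 5′ to 3′ from RefSeq, and capitals mark TATAAA read on the other strand, which lies further from the start used here in Cyp2d40 than in the other windows. The skin gene models start Cyp2d40 at chr15:82764183, upstream of the 82764122 used here, so this distance depends on the annotated start. For Cyp2d9 and Cyp2d26 the deposited gene models share their start.
Cyp2d9: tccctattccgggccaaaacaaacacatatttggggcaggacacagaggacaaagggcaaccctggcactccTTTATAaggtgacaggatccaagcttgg
Cyp2d40: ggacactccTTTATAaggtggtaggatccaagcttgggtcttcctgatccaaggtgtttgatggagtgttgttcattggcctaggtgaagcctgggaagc
Cyp2d26: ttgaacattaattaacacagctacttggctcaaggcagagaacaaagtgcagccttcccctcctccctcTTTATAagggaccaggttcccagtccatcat

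Over the 250 bases before the start, TATAAA on either strand occurred in 51.7% of the 29 tested members with a RefSeq window (15 of 29) and in 12.4% of all 32851 windows. The 7-base run CAAAGTC, part of a site of the hepatocyte factor HNF4, occurred on either strand in 24.1% of the 29 and in 3.84% of all windows. Members of a subfamily are copies of each other, so these shares do not count independent promoters, and a match is a description, not a site.

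Cyp1a2, an Ahr target and a pericentral enzyme that clears caffeine, stood at 1512, 1572, 1567 and 1573 CPM in young livers, at 925, 256 and 836 CPM after vehicle and at 1011, 1383 and 1206 CPM after ABT-737. The 3 groups were separate, with a 2.33-fold lower level in the vehicle group (-1.22 ± 0.34, adjusted p = 0.017). Cyp2a5 stood at 430, 480, 1161 and 658 CPM, then 166, 86.6 and 380 CPM, then 384, 427 and 478 CPM. The vehicle livers lay below the young ones (-1.68 ± 0.43, adjusted p = 0.011), and the young group was itself widely spread. Cyp2j5 stood at 354, 319, 306 and 361 CPM, then 39.3, 139 and 186 CPM, then 182, 156 and 156 CPM (-1.37 ± 0.31, adjusted p = 0.0059), and stayed below the young range in all 6 old livers.

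Some members with high counts in liver were not called. Cyp2e1 stood at 5321, 6185, 6588 and 5843 CPM in young mice, at 5656, 796 and 3569 CPM after vehicle and at 5425, 6662 and 4523 CPM after ABT-737 (-0.84 ± 0.43, adjusted p = 0.18), with vehicle replicate 4 far below all others. Cyp2f2, a periportal enzyme in liver, stood at 2521, 2752, 2352 and 2565 CPM, then 1388, 1018 and 2144 CPM, then 2231, 2915 and 2649 CPM (-0.75 ± 0.26, adjusted p = 0.052). The Cyp3a genes, which oxidise many drugs and steroids, had few counts. Cyp3a11 stood at 29.8–67.8 CPM in young livers, 28.3–34.9 CPM after vehicle and 17.1–23.8 CPM after ABT-737 and was not called, and Cyp3a13 was called once, lower in ABT-737 than in young mice (27.1, 29.8, 38.4 and 15.3 CPM against 7.93, 1.90 and 4.95 CPM, -2.65 ± 0.69, adjusted p = 0.027), with 1 or 2 counts in each ABT-737 library.

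Members that are female-biased in liver, a list of 9, were near the floor in these male livers, with a summed level of 4.47–32.3 CPM in young mice, 0–7.71 CPM after vehicle and 5.69–27.7 CPM after ABT-737, and none was tested. Among male-biased genes outside the 3 families, of 5 tested on a list of 6, 4 fell with vehicle and 3 were higher with ABT-737 than with vehicle. Of all genes, 10.8% and 1.0% were called in these directions. Hsd3b5, a steroid dehydrogenase, changed by -6.97 ± 0.62 and 4.76 ± 0.72 in these comparisons (adjusted p = 3.6e-06 and 0.0014). In ABT-737 against young, 2 of the 5 were called lower and 1 higher, where 8.40% of all genes were called. Acute phase genes in the same livers summed to 23483–33326 CPM in young mice, 40952, 93151 and 131992 CPM in vehicle replicates 3, 4 and 5, and 29019–43953 CPM after ABT-737. Its part in the P450 levels was not tested. The hepatocyte list, at 74201–89193, 61223–90953 and 83313–95115 CPM, overlapped between the groups.

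Between ABT-737 and vehicle livers, 1 of 25 members was called, higher, where 3.85% of all genes were called and 1.0% as higher. The change was positive for 20 of 25 members, with a median of 0.52 against -0.03 over all genes. Between ABT-737 and young livers, 2 of 25 were called, both lower (Cyp2c70 and Cyp3a13), against 8.40% of all genes and 5.27% as lower. The vehicle-against-young count was 8 without vehicle replicate 4, where Cyp2c68, Cyp2c70, Cyp2d9, Cyp2d13, Cyp2d37-ps and Cyp2d40 were no longer called. The call of Cyp2d37-ps was also lost without young replicate 1, 2 or 4 or vehicle replicate 5, and that of Cyp2d40 without any 1 young library or vehicle replicate 5. Without vehicle replicate 5, the changes of Cyp2c29, Cyp2c68 and Cyp2a5 were -4.43, -2.12 and -2.52, and Cyp2c29 was called higher in ABT-737 than in vehicle livers (a change of 3.43). The single call for Cyp2d40 between ABT-737 and vehicle was lost without any 1 of the 4 young libraries, without vehicle replicate 4 and without ABT-737 replicates 3 or 4, and the count was 7 without vehicle replicate 3 and 8 without vehicle replicate 5. Between ABT-737 and young the count was 0 without young replicate 2, 1 without young replicate 3 or ABT-737 replicate 4 or 5, and 8, 5 and 7 without vehicle replicates 3, 4 and 5; the call of Cyp2c70 was lost without ABT-737 replicate 4 or 5, and that of Cyp3a13 without young replicate 2 or 3 or any 1 ABT-737 library.

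For 3 members kidney and liver went in opposite directions. In 1 fit over both organs, the vehicle-against-young change differed between them for 4 of 36 members, Cyp2a4, Cyp2a5, Cyp2c44 and Cyp2d9, all with a lower change in liver, while 2.66% of all 10416 genes differed and 1.22% in that direction. The 36 include members with few or no counts in 1 organ, for which the difference could not be estimated. Cyp2a5 differed by -2.86 ± 0.51 (adjusted p = 0.0014), Cyp2c44 by -1.84 ± 0.31 (adjusted p = 8.5e-04) and Cyp2d9 by -1.94 ± 0.41 (adjusted p = 0.0080). The difference between the organs was called for each of these 3 whichever library was left out. In the fits of single organs each was also called higher in old kidney and lower in old liver, but there the kidney calls of Cyp2c44 and Cyp2d9 and the liver call of Cyp2d9 were each lost without single libraries. Cyp2a4 also differed (-3.52, adjusted p = 0.019), but it had 5, 1, 19 and 6 counts in young livers, 0, 2 and 1 after vehicle and 2, 2 and 3 after ABT-737, and its call was lost without liver young replicate 3, liver vehicle replicate 4 or liver vehicle replicate 5.

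For other members the difference did not pass the test. Cyp2j5 fell in each, by 0.70 in kidney and by 1.37 in liver, with a difference of -0.66 ± 0.35 (adjusted p = 0.37). Cyp2f2 changed by -0.79 ± 0.35 in kidney and -0.75 ± 0.26 in liver, with a difference of 0.05 ± 0.38. Cyp2d26, lower in old kidney, differed from liver by 0.67 ± 0.30 (adjusted p = 0.26). For ABT-737 against vehicle no member passed the test of a difference between the organs (0 of 36, 5 at an unadjusted p under 0.05, 1 by DESeq2, against 0.240% of all genes by edgeR), and Cyp2d26 came nearest, at 1.22 ± 0.32 (adjusted p = 0.12). For members without counts in 1 organ the test cannot decide, as for Cyp1a2 with 0 counts in every kidney (standard error 1815).

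**Figure D3:**
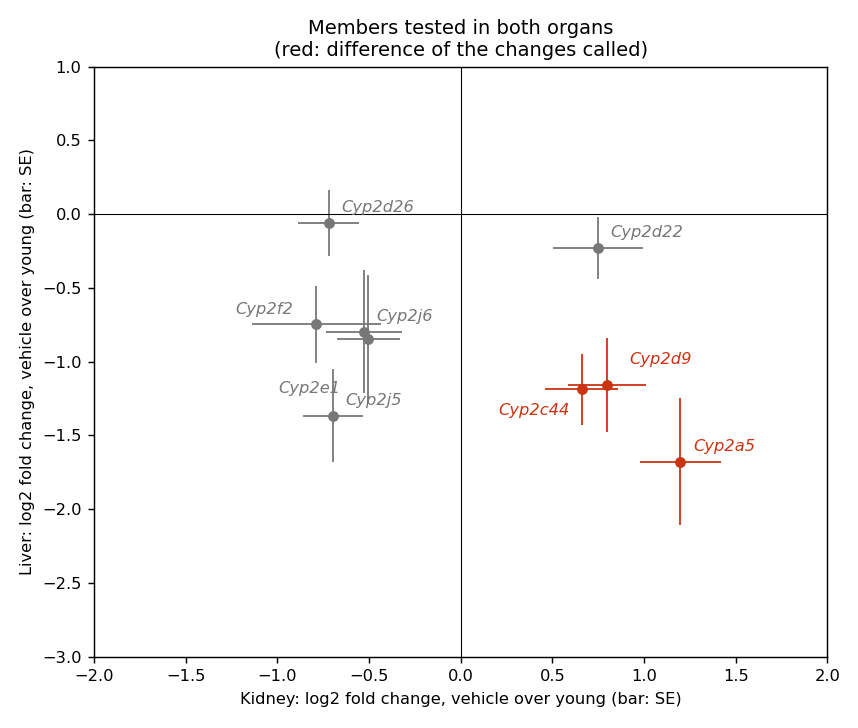
Log2 fold change of vehicle over young in kidney (horizontal) against liver (vertical) for the 9 members tested in both organs; bars are standard errors and red marks members whose difference between the organs passed the test. Cyp2a5, Cyp2c44 and Cyp2d9 lie at 0.66 to 1.20 in kidney and -1.68 to -1.16 in liver, and no member was higher in old liver.

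In lung, 1 of 9 tested members, Cyp1b1, was called in vehicle against young, higher, where 12.9% of all 11949 genes were called and 8.15% as higher. Cyp2f2 and Cyp2b10 led the lung by counts. Cyp2f2, the naphthalene-activating enzyme of club cells (NM_007817, mm10 chr7:27119955-27133660), stood at 6332, 6725, 6821 and 7142 CPM in young lungs, at 4774, 5591 and 1504 CPM after vehicle and at 6930, 6817 and 3291 CPM after ABT-737. The vehicle lungs lay below the young range, but the spread was wide and the change of -0.77 ± 0.45 did not pass the test (adjusted p = 0.27). Cyp2b10, a target of the constitutive androstane receptor, stood at 1193, 1471, 1732 and 1869 CPM, then 714, 1393 and 300 CPM, then 1594, 2112 and 499 CPM (-0.97 ± 0.52, adjusted p = 0.23).

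Vehicle replicate 5 and ABT-737 replicate 5 were the lowest library of their group for both genes, and they also had the lowest summed level of the alveolar and club cell list in their group, 30291 and 38906 CPM, where the young lungs had 47778–59524 CPM, and of the ciliated cell list, 339 and 600 CPM against 1145–1495 CPM. The part of cell content in these levels was not tested. Cyp2s1, an extrahepatic epithelial P450, stood at 111, 90.4, 143 and 93.1 CPM in young lungs, at 118, 114 and 49.4 CPM after vehicle and at 166, 148 and 105 CPM after ABT-737, and Cyp2a5 at 47.6, 53.5, 65.1 and 25.5 CPM, then 111, 51.5 and 29.9 CPM, then 29.6, 22.1 and 94.8 CPM. Their groups overlapped and neither was called.

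Cyp2e1 in lung stood at 54.4, 38.2, 34.7 and 34.8 CPM in young mice, at 20.1, 18.4 and 1.12 CPM after vehicle and at 32.2, 793 and 13.4 CPM after ABT-737. The value of 793 CPM came from ABT-737 replicate 4, whose adipocyte list summed to 4293 CPM, where the other 9 lungs had 61.7–171 CPM. The change of ABT-737 against vehicle was 4.43 ± 1.21 with that library (adjusted p = 0.13) and 0.81 without it (adjusted p = 0.54).

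**Figure D4:**
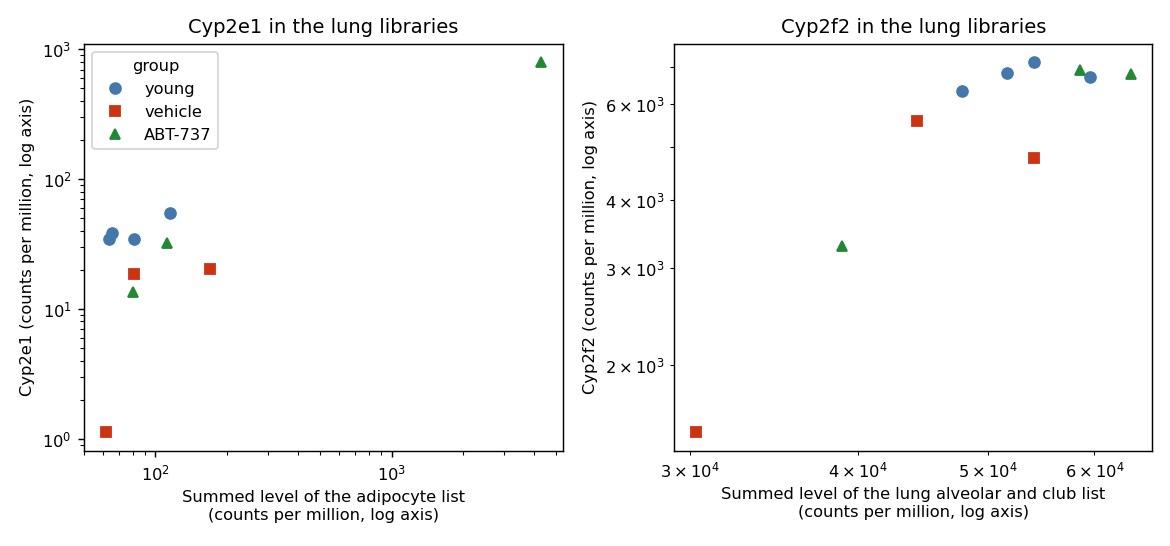
Left, level of Cyp2e1 against the summed level of 5 adipocyte markers in the 10 lung libraries; right, level of Cyp2f2 against the summed level of 8 alveolar and club cell markers; all axes are in CPM and logarithmic, and symbols mark the groups. ABT-737 replicate 4 stands apart at 793 CPM of Cyp2e1 and 4293 CPM of adipocyte markers.

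Between ABT-737 and vehicle lungs no member was called (0 of 9, 1 at an unadjusted p under 0.05), and neither was any of all genes (0%) by edgeR, while DESeq2 called 0 members and 342 genes. With replicate number as a block, edgeR called 0 members and 99 genes of 11949. Without ABT-737 replicate 4 it called 0 members and 676 genes, and without ABT-737 replicate 5 it called 1 member, Cyp2e1, and 122 genes. Between ABT-737 and young lungs 1 of 9 was called, again Cyp1b1 and higher, against 2.55% of all genes and 2.15% as higher.

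Cyp1b1, an Ahr target that oxidises oestradiol and polycyclic hydrocarbons and is known from stromal cells outside the liver (NM_009994, mm10 chr17:79706953-79715041), was the 1 member called in both lung and skin. In lung it stood at 1.47, 4.17, 1.09 and 6.24 CPM in young mice, at 9.39, 19.3 and 13.1 CPM after vehicle and at 7.73, 29.5 and 13.9 CPM after ABT-737. All 6 old lungs were above all 4 young ones, by 2.11 ± 0.57 with vehicle (a 4.33-fold rise, adjusted p = 0.026) and 2.33 ± 0.58 with ABT-737 (adjusted p = 0.049), from 2 to 12 counts in each young library. These calls rest on single libraries: the first was lost without young replicate 1, 2 or 3 or vehicle replicate 4 or 5, at changes of 1.80 to 2.24, and the second without any 1 young library, vehicle replicate 3 or ABT-737 replicate 4 or 5. In a fit blocked on replicate number, the changes were 2.12 and 2.30 and neither was called (adjusted p = 0.058 and 0.21). That block also ties young lungs to old ones of the same number. Young replicates 1 and 2, alone in their blocks, drop out of these comparisons, so the lost calls also reflect fewer young libraries.

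In skin Cyp1b1 stood at 5.06, 4.03 and 5.0 CPM in young mice, at 17.6, 27.4 and 23.7 CPM after vehicle and at 15.6, 19.6 and 35.0 CPM after ABT-737. The old skins did not overlap the young ones and hardly differed between treatments (0.03 ± 0.32, adjusted p = 0.998). The rise was 2.28 ± 0.38 with vehicle (4.85-fold, adjusted p = 0.013) and 2.30 ± 0.38 with ABT-737 (adjusted p = 0.018). The vehicle call was lost without young replicate 1 or 2, and the ABT-737 call without any 1 young library or ABT-737 replicate 4 or 5. In kidney it stood at 12, 15.2, 22.8 and 19.4 CPM, then 15.7, 30.8 and 29.1 CPM, then 11.3, 20.8 and 17.7 CPM and was not called (0.50 ± 0.27, adjusted p = 0.25). In liver it had 0 counts in all young and all ABT-737 libraries and 0, 6 and 1 counts after vehicle.

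**Figure D5:**
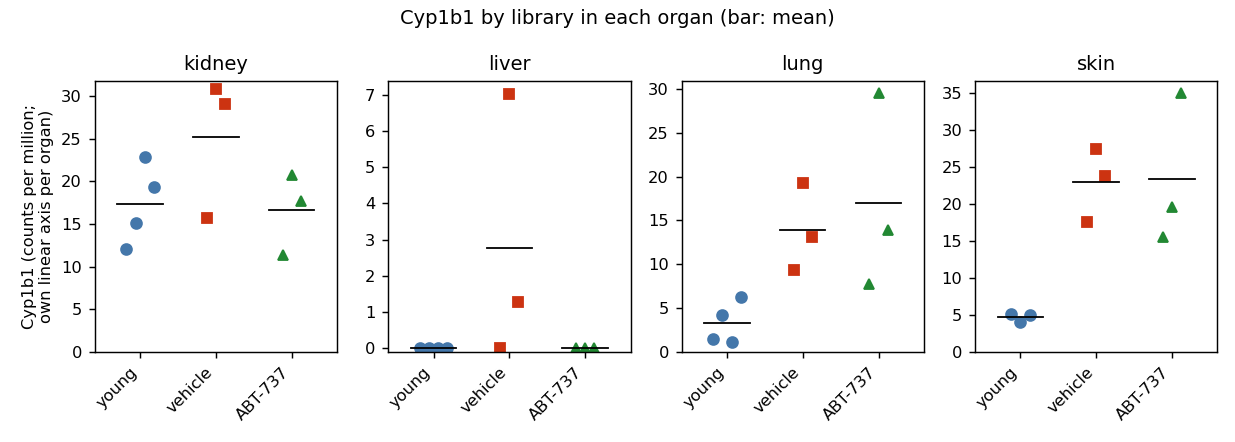
Cyp1b1 in kidney, liver, lung and skin by library, in CPM, each organ on a linear axis of its own; circles are young, squares vehicle and triangles ABT-737, and bars are group means. In lung and skin every old library lies above every young one, and in kidney the groups overlap.

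The 250 bases before the Cyp1b1 start are shown because the member called in both lung and skin is an Ahr target (RefSeq, GRCm38.p6 chr17:79715062-79715311, minus strand, 5′ to 3′). Capitals mark GCGTG, the core of the xenobiotic response element, found once, on the other strand; this core occurred on either strand in 28.2% of all windows and in 20.7% of the tested members' windows.
Cyp1b1: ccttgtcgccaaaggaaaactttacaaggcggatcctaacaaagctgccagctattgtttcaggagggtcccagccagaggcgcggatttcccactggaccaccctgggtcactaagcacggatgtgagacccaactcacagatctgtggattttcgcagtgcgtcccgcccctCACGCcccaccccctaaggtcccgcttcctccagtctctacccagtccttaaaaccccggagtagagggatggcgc

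No other Ahr target was called in lung or skin. Cyp1a1, the classical Ahr target, stood at 11.9–20.2 CPM in young lungs, 4.86–17.6 CPM after vehicle and 12.6–28.2 CPM after ABT-737 and was not called, and in skin it stood at 1.45–5.18, 7.83–13.8 and 1.18–6.09 CPM (1.58 ± 0.59 for vehicle against young, adjusted p = 0.10). Of Ahrr, Tiparp and Nqo1, those tested in kidney, lung or skin (2, 1 and 2) were not called in vehicle against young. The fibroblast list in skin, at 1438–7701 CPM in young mice, 5320–11173 CPM after vehicle and 3093–11883 CPM after ABT-737, overlapped between the groups, with 5 of 5 markers positive in vehicle against young (median log2 change 1.42) and 1 called. The endothelial list stood at 37.6–59.1 CPM in young skins, 95.4–134 CPM after vehicle and 54.1–72.1 CPM after ABT-737, with 2 of 4 called higher in vehicle against young. The skeletal muscle list stood at 47039–65948 CPM in young skins, 7362–33668 CPM after vehicle and 12187–38438 CPM after ABT-737, without overlap between young and old. The part of these lists in the skin levels was not tested.

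Skin held 10 tested members at low counts, of which 1 was called in vehicle against young and 1 in ABT-737 against young, Cyp1b1 each time and higher, against 11.2% and 5.17% of all 14224 genes in either direction and 5.84% and 2.0% as higher. No member was called between ABT-737 and vehicle (0 of 10, 1 at an unadjusted p under 0.05, 0% of all genes by edgeR, and 0 members and 60 genes by DESeq2). Cyp2f2 stood at 24.6, 64.4 and 101 CPM in young skins, at 185, 503 and 164 CPM after vehicle and at 279, 98.3 and 233 CPM after ABT-737, with all vehicle skins above the young ones (2.15 ± 0.62, adjusted p = 0.053). Cyp2e1 stood at 37.6, 194 and 148 CPM, then 16.7, 368 and 39.7 CPM, then 106, 36.0 and 41.1 CPM, a spread within groups that exceeded any difference between them. Cyp2b10 (14.1–79.5 CPM over all skins) and Cyp2j6 (8.68–38.4 CPM) were not called either.

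Partners and regulators of the enzymes were read from lists. Of 14 electron donors and haem genes, 13 were tested in liver, and in vehicle against young 4 were lower and 1 higher, while 22.6% of all liver genes were called. Alas1, the rate-limiting enzyme of haem synthesis, stood at a mean of 1685 CPM in young livers and 329 CPM after vehicle (-2.35 ± 0.34, adjusted p = 2.1e-04), and at 684 CPM after ABT-737. Hmox1, which breaks haem down, went from 16.8 to 124 CPM (2.94 ± 0.32, adjusted p = 2.2e-05) and stood at 14.3 CPM after ABT-737 (-3.22 ± 0.40 against vehicle, adjusted p = 2.8e-04). The reductase Por, which all members depend on, was not called in liver (0.36 ± 0.21, adjusted p = 0.25) or kidney (-0.51 ± 0.19, adjusted p = 0.089) and was lower in old vehicle lung (-1.37 ± 0.29, adjusted p = 0.0093). In kidney 2 of 14 were lower, Alas1 (-1.0 ± 0.17) and Pgrmc1 (-0.88 ± 0.17), in lung 2 were lower and 1 higher, and in skin 1 was lower and 2 higher, of 14 each time; of all genes, 13.3%, 12.9% and 11.2% were called in these organs.

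Of 24 transcriptional regulators, 22 were tested in liver and 19 in kidney. In vehicle against young liver 4 were lower (Dbp, Onecut1, Foxa2 and Cebpa) and 2 higher (Nfil3 and Nr1i2, the pregnane X receptor), and in kidney 3 were lower (Dbp, Tef and Nr1h4) and 2 higher (Nfil3 and Nr1i2), beside 22.6% of all genes called in liver and 13.3% in kidney. Onecut1, a hepatocyte factor, stood at a mean of 65.2 CPM in young livers, 13.3 CPM after vehicle and 70.3 CPM after ABT-737 (-2.53 ± 0.45 and 2.63 ± 0.48, adjusted p = 9.6e-04 and 0.0052). Dbp, a clock-controlled factor, was lower in both old groups of every organ: its change with vehicle was -3.93 ± 0.18 (kidney), -5.0 ± 0.32 (liver), -5.01 ± 0.32 (lung) and -4.42 ± 0.36 (skin) (adjusted p at most 0.0018), and between ABT-737 and vehicle by no more than 0.15 in either direction. Nfil3, whose product is an antagonist of Dbp, changed by 2.08 ± 0.36 in kidney, 2.88 ± 0.42 in liver and 1.51 ± 0.39 in lung. The hour at which tissue was taken is not given in the sources used here, so age and hour cannot be told apart for clock-controlled genes, and their part in the P450 levels was not tested.

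P450 genes outside the rule gave a comparison for liver. Of 16 tested, 7 were lower and 1 higher in vehicle against young, where 22.6% of all genes were called. The median of the 16 was -1.23 beside -1.14 for the 25 members. In ABT-737 against vehicle 4 were higher and 1 lower, where 3.85% of all genes were called. Cyp7b1 and Cyp4a12a, both among the 16, are also on the male-biased list. In kidney, 6 of 16 tested outside the rule were higher and 1 lower in vehicle against young, where 13.3% of all genes were called. The risers were Cyp4f18 (3.68 ± 0.39), Cyp26b1, which breaks down retinoic acid (3.30 ± 0.41), Cyp27b1, which activates vitamin D (2.63 ± 0.55), Cyp4a14, Cyp4f15 and Cyp4a12b, and Cyp7b1, an oxysterol hydroxylase, fell by 1.57 ± 0.34.

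Members that were not tested had too few counts to compare. In kidney 7 had at least 4 counts in some library, 12 had at most 1 to 3 and 27 had 0 in every library, and for liver these numbers were 15, 7 and 15, for lung 10, 20 and 23, and for skin 14, 18 and 30. In liver Cyp2r1, a vitamin D 25-hydroxylase, was among them at 17.4–27.6 CPM in young mice, 0–5.14 CPM after vehicle and 0–1.90 CPM after ABT-737. Identical counts in all libraries of an organ were found in 32 sets that held a member, none of them tested.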

How the data were processed

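The authors deposited raw counts per gene from 3′-end libraries of 39 tissue samples, in 1 table of the internal organs and a separate skin table with its own gene models; the submitters' notes name bcl2fastq, HISAT 0.1.5, HOMER and mm10. Collapsing of molecule barcodes and use of strand are not given in the sources used here. Organs were fitted separately, with 3 groups each, by edgeR 4.0.16 (R 4.3.3): filterByExpr, TMM scaling, quasi-likelihood test, Benjamini-Hochberg adjustment over all genes, threshold 0.05. Errors are standard errors derived from the F statistic. Liver and kidney were also fitted together to test the difference of their changes. Named members were those called in any comparison and, in each organ, up to 5 with the highest median CPM; Cyp2j13, Cyp2c37, Cyp3a11, Cyp1a1 and Cyp2r1 were added after their values were seen, and non-members came from the lists. Members and lists were chosen with earlier results of these data known. The labels write ABT-738 and ABT-739 for some ABT-737 samples, which were placed by their titles. Deviations of same-numbered vehicle and ABT-737 lungs had correlations of 0.18, 0.30 and 0.43, and those of skins -0.57, -0.58 and 0.28. No label says that equal numbers are pairs. The main fits used group only, and a block on the number was an alternative. Mice are not named as shared between organs, and p-values measure the spread between libraries. The scripts were tested on simulated data. Alternatives were DESeq2 1.42.0, other scaling and filters, a replicate block, fewer groups and leaving out each library. Promoter windows came from RefSeq (GRCm38.p6).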

Additional observations from a re-analysis of the deposited data

Results flagged for a closer look

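In young groups of 4 libraries, 1 library stood apart from the others for 8 of 50 member and organ pairs examined. The cutoff gives 1 in 20, or 2.5, for independent and normally distributed values. The members share libraries and many are copies of each other, so the 8 cannot be judged against 2.5. A flagged gap can be small in CPM, as for Cyp1a2 in liver (1512 against 1567, 1572 and 1573 CPM). The gap to the nearest library as a share of the range was 0.854 for Cyp2c44 and 0.882 for Cyp2j6 (both young replicate 3) and 0.876 for Cyp2j13 (young replicate 4) in kidney. In liver it was 0.895 for Cyp1a2, 0.856 for Cyp2c54 and 0.876 for Cyp3a11 (all young replicate 1), 0.922 for Cyp2d13 (young replicate 2) and 0.882 for Cyp2d11 (young replicate 4).

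The vehicle-against-young change differed between liver and kidney, in the joint edgeR fit, by -3.52 for Cyp2a4, -2.86 for Cyp2a5, -1.84 for Cyp2c44 and -1.94 for Cyp2d9.

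For ABT-737 against vehicle, every liver of one group lay above and every kidney below those of the other for Cyp2d22 (0.48 in liver, -0.68 in kidney) and Cyp2d26 (0.52 and -0.64), and the difference between the organs did not pass the test (adjusted p = 0.16 and 0.12). For vehicle against young, Cyp2f2 lay higher in all skins (2.15) and lower in all livers (-0.75) and lungs (-0.77), and this difference was not tested. These patterns came from a scan of all tested members over the organs. The share of all genes with such opposite patterns was not computed, so they are listed only as a description.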

How the results depend on the processing

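Counts of called members moved with the settings as follows. In kidney, the 7 calls for vehicle against young were 12 with no filter, 2 with an absolute log2 change above 1 required and 3 to 10 with 1 library left out; the 0 for ABT-737 against vehicle were 2 with DESeq2, 1 with no filter and 0 to 4; the 5 for ABT-737 against young were 3 with the size limit and 3 to 6 with 1 library left out. In liver, the 13 for vehicle against young were 22 with no filter and 8 to 15 with 1 library left out; the 1 for ABT-737 against vehicle was 3 with DESeq2, 7 with no filter, 2 with at least 10 counts in every library, 0 with only the 2 groups and 0 to 8; the 2 for ABT-737 against young were 4, 8, 0, 10 and 0 to 8. In lung, the 1 for vehicle against young was 2 with no filter, 0 with at least 10 counts and 0 to 1; the 0 for ABT-737 against vehicle was 1 with no filter and 0 to 1; the 1 for ABT-737 against young was 0 with DESeq2 size factors, 2 with no filter, 0 with at least 10 counts, 0 with 1 gene of each identical set and 0 to 1. In skin, the 1 for vehicle against young was 2 with DESeq2, 2 with no filter, 2 with only the 2 groups and 0 to 3; the 1 for ABT-737 against young was 2, 2, 0 with at least 10 counts and 0 to 3. The 0 for the organ difference of ABT-737 against vehicle was 1 with DESeq2 and 0 to 2. The cause was not tested.

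With the replicate number as a block, kidney gave 1 call for vehicle against young and 2 for ABT-737 against young, liver gave 2 and 0, and lung gave 0 and 0. For ABT-737 against vehicle in liver the block gave 0. It ties young to old libraries of the same number, and young libraries whose number no old library carries drop out of the comparisons with young. In skin that leaves 1 young library, so no counts are given. Outside lung the correlations of same-numbered vehicle and ABT-737 libraries ran from -0.58 to 0.28. The organ differences were not fitted with a block. Of 628 values of 36 named member results under the alternatives, 519 were called with the same sign, 109 were not called and 0 reversed. Liver depth limits members below 3.51 to 13.1 CPM (3 counts).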
